A study of Mus musculus with 4 samples.

Results

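Oxidative phosphorylation is carried out by complexes I to V of the inner mitochondrial membrane. Complexes I to IV pass electrons from NADH and succinate to oxygen and complex V, the ATP synthase, uses the resulting proton gradient to make ATP. The mitochondrial genome encodes a core set of subunits of complexes I, III, IV and V, together with the ribosomal and transfer RNAs needed to translate them, whereas all subunits of complex II and most subunits of the other complexes are encoded in the nucleus. In skeletal muscle, satellite cells leave a state of low metabolic activity when they are activated, and mitochondrial content is known to rise as myoblasts differentiate. Several complex IV subunits (Cox genes) exist as a ubiquitous form and as a form that is typical of heart and skeletal muscle.

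The genes were chosen by symbol: every listed gene of the mitochondrial genome (mt-), and the nuclear genes of the subunits of complex I (Nduf with a, b, c, s or v and a number), complex II (Sdha to Sdhd), complex III (Uqcr), complex IV (Cox4 to Cox8 with a subunit letter) and complex V (Atp5). The rule found 123 of the 25827 listed genes. Of these, 37 were mitochondrial (13 mRNAs, 2 rRNAs and 22 tRNAs) and 86 were nuclear (37 of complex I, 4 of complex II, 8 of complex III, 19 of complex IV and 18 of complex V). Complexes were assigned by symbol alone, so that Ndufa4 counts under complex I and Cox5b-ps under complex IV. The mitochondrial and the nuclear genes are given apart throughout.

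Single-cell RNA sequencing was done on myogenic progenitors (MPs), sorted as α7-integrin-positive cells without CD45, CD31 or Sca1 from the tibialis anterior. The mice were 12 weeks old, and their muscle had been injured with cardiotoxin, a venom toxin that kills myofibres, 6 days earlier. The control mice carried Pax7Cre, a Cre recombinase expressed from the Pax7 locus in the myogenic lineage, and the miR-501KO mice carried Pax7Cre together with the loxP-flanked miR-501 allele (Pax7CremiR-501fl/Y). Both groups therefore carried Cre, which is not inducible. Each genotype had 2 libraries (replicates 1 and 2, from 2 runs of the experiment) and each library pooled 3 mice, which makes the library the replicate.

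The libraries held between 73665012 and 117527749 unique molecular identifiers (UMIs, each marking 1 captured transcript). Of 16519 barcodes, 10450 had at least 5000 UMIs and 1000 genes and were kept, 1829 to 3439 in each library, and 10 barcode sequences occurred in more than 1 library. Cells were clustered without the 123 genes, and clusters were named from marker genes only where the markers allowed it. Unnamed clusters held 1061 and 517 kept cells in the Pax7Cre libraries (replicate 1 first) and 1498 and 712 in the miR-501KO libraries. Cluster 1, with 860, 451, 522 and 427 cells in the same order, was among them. Unnamed cells enter the comparisons over all cells but not those by class. The sort also held clusters named mural-like, macrophage-like and Schwann-like. The comparisons were made between 3 myogenic classes: quiescent-like (Pax7, Calcr, Chodl), cycling-like (Mki67, Top2a, Cdk1) and committed-like (Myog, Mymk, Tnnt2). In miR-501KO replicate 1, 2 unnamed clusters (95 of 99 cells of cluster 16, and cluster 17 with 659 cells) were specific to that library and stood apart from the other cells. They belong to none of these classes, so the class values are the same without them. Unnamed clusters 7 (145 and 30 cells, replicate 1 first) and 18 (31 and 37 cells) reached 20 cells in both miR-501KO libraries and in neither Pax7Cre library. Unnamed cluster 14 reached 20 cells in miR-501KO replicate 2 only (61 cells). Doublets were not removed.

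Nearly all nuclear subunit genes were expressed. Cox8c and the second Atp5o identifier (ENSMUSG00000116933), which overlaps the main Atp5o locus, had 1 UMI each in the kept cells and Cox7b2 had 15, which was too few for a test. Of the mitochondrial RNAs, mt-Co3, mt-Atp6 and mt-Co1 had the most UMIs (2302834, 2237648 and 2112074), and the 22 tRNAs together had 9848. Since each captured molecule is primed at its poly(A) stretch, counts of tRNAs and rRNAs are few or uncertain by design of the assay. The nuclear complex V genes summed to 3649180 UMIs and the complex II genes to 193039.

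The promoters below are those of genes on which the comparisons turn. Cox7a1 and Cox8b are the muscle forms of 2 complex IV subunits and rose most with commitment together with Cox6a2, with all barcodes kept. Cox8a is the ubiquitous partner of Cox8b, and Sdhd (a membrane anchor of complex II) and Atp5k (subunit e of complex V) followed next. Without barcodes under 0.5% mitochondrial UMIs, the log2 fold change of Cox7a1 was 1.16 in place of 3.59. Each sequence is the 250 bases before the first start site that RefSeq lists for the gene (GRCm38.p6), written 5′ to 3′ on the strand of the gene, with letters that match a searched motif in capitals. They lie at chr7:30183921-30184170 (plus strand, Cox7a1), chr7:140900447-140900696 (minus, Cox8b), chr19:7217617-7217866 (minus, Cox8a), chr9:50603850-50604099 (minus, Sdhd) and chr5:108434400-108434649 (minus, Atp5k).
Cox7a1: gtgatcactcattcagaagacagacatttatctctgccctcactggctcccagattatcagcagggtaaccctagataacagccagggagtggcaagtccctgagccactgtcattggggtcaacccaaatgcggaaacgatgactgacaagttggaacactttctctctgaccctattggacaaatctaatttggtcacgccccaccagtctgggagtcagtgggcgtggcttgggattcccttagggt
Cox8b: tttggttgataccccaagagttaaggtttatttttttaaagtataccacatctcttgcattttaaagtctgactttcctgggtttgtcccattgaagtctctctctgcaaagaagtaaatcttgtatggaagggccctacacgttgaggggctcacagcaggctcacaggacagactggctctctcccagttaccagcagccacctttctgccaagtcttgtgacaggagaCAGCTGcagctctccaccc
Cox8a: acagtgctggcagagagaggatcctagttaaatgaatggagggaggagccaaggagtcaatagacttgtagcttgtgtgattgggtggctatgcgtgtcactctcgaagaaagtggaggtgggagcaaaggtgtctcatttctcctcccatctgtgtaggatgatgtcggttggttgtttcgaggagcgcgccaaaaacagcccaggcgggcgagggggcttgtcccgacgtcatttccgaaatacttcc
Sdhd: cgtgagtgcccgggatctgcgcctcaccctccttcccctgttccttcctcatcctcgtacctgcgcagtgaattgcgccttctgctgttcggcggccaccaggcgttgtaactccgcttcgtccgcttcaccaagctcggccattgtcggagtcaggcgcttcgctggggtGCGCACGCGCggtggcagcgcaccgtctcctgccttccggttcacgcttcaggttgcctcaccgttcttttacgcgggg
Atp5k: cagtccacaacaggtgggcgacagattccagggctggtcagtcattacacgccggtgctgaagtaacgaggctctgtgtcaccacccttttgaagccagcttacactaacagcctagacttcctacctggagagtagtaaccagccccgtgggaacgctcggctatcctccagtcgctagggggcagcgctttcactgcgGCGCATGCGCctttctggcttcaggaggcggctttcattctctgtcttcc
The capitals mark an E-box in Cox8b and an NRF1 motif in Sdhd and in Atp5k. No searched motif was in these windows of Cox7a1 and Cox8a.

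Several motifs were searched on both strands in such windows of 69 of the 86 nuclear genes and of 27025 genes in all. They were NRF1 (GCGCA, any base, then GCGC), GABPA (CCGGAAGT), ERR (AAGGTCA), YY1 (AAGATGGC), the E-box CAGCTG bound by myogenic factors, and MEF2 (CTA, any 4 bases, then TAG). The NRF1 motif was in 12 of 69 promoters (17.4%), against 3.86% of all promoters and 8.83% of the 9357 promoters of genes tested in the committed-like comparison. Besides Sdhd and Atp5k, the 12 included Sdha, Ndufa5, Ndufa8, Ndufs5, Cox6a1, Atp5h and Atp5g2. The ERR motif was in 5 (7.25%, against 4.05% of all and 2.60% of the tested), the E-box in 6 (8.70%, against 12.8% and 11.7%), GABPA in 3 (4.35%, against 2.93% and 6.25%) and MEF2 in 1, Cox5b (1.45%, against 3.23% and 2.66%). YY1 was in 0 of 69, against 1.59% and 2.01%. A match is a description of the letters and not a binding site. Cox6a2 and Cox4i2 had no entry among the promoters used.

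The first question was how the nuclear and the mitochondrial share of the RNA differ between the states of the myogenic cells. Quiescent-like cells had the lowest nuclear share of the myogenic classes and committed-like cells the highest. The nuclear genes took 2.56% and 2.50% of the UMIs of quiescent-like cells in the Pax7Cre libraries (replicate 1 first) and 2.31% and 2.53% in the miR-501KO libraries. In cycling-like cells they took 3.39%, 3.29%, 3.33% and 3.41% in the same order. In committed-like cells they took 3.74%, 4.40%, 4.14% and 3.87%. The 3 ranges did not overlap. The mean was 2.48% ± 0.113 (SD, n = 4) in the quiescent-like, 3.35% ± 0.0560 in the cycling-like and 4.04% ± 0.292 in the committed-like class, and the difference had the same sign in 4 of 4 libraries in both comparisons (exact sign permutation test over libraries, two-sided, p = 0.125, the smallest that 4 libraries allow).

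The mitochondrial share behaved differently. It was 5.36%, 4.49%, 5.39% and 5.51% in quiescent-like cells and 4.02%, 3.18%, 4.03% and 3.31% in cycling-like cells, so that every library was lower in cycling-like cells, by 1.31 to 2.20 percentage points (mean difference -1.55, exact permutation p = 0.125). In committed-like cells it was 6.06%, 3.92%, 5.53% and 5.04%, a range that contained that of the quiescent-like cells. The difference was -0.0532 points on average, positive in both replicates 1 and negative in both replicates 2 (exact permutation p = 1). Its direction changed with the filter on barcodes (0.149 points without the barcodes under 0.5% mitochondrial UMIs, and -0.201 points without those over 10%). The committed-like class held 174 barcodes over 10%. Its 90th percentile was 28.0% (Pax7Cre replicate 1) and 26.7% (miR-501KO replicate 2), against 7.84% and 9.74% in quiescent-like cells of these libraries, while it was 6.72% and 11.1% in the other 2 libraries. The part of damaged cells in the committed-like share was not tested. Of the 3 classes, quiescent-like cells had the highest ratio of mitochondrial to nuclear UMIs in each library.

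**Figure D1:**
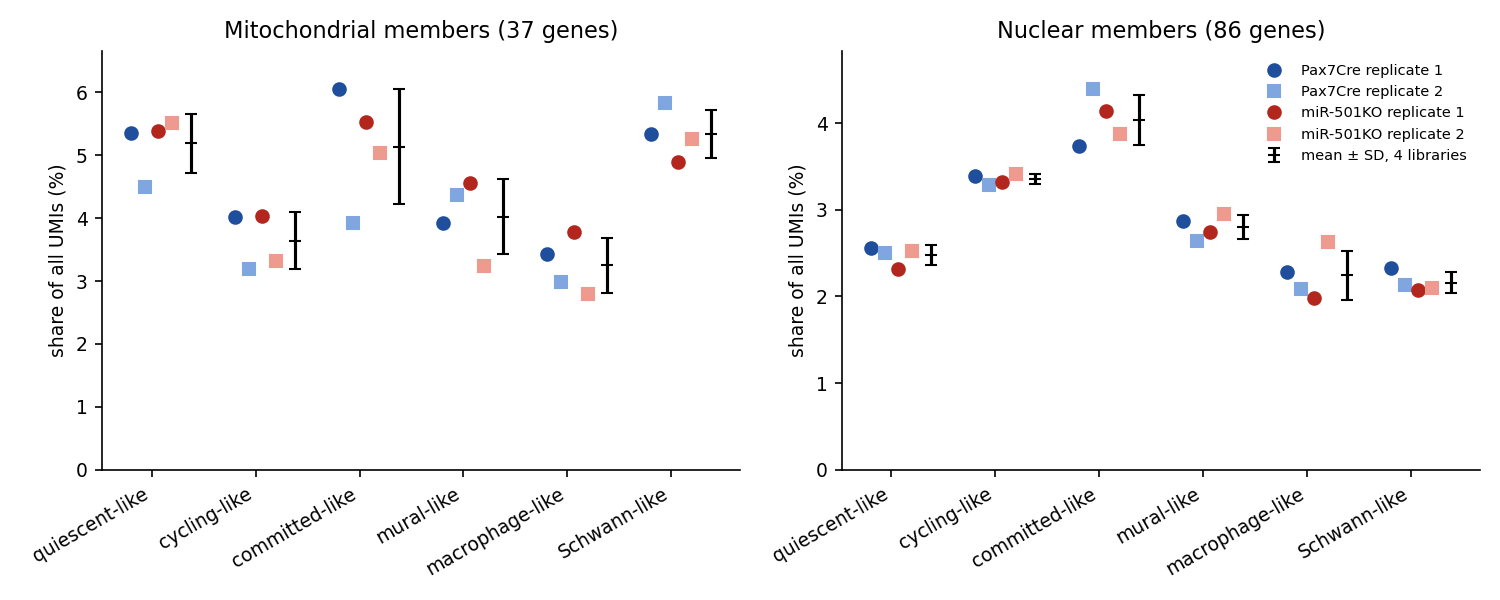
Share of all UMIs (%, y axis) taken by the 37 mitochondrial (left) and 86 nuclear genes (right) in each named cell class (x axis), with a point for each library and the mean ± SD of 4 libraries in black. The nuclear share is higher in cycling-like and committed-like than in quiescent-like cells in each library, whereas the mitochondrial share is lower in cycling-like cells and overlaps between committed-like and quiescent-like cells.

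The classes also differed in depth, which was not tested as a part of these differences. The median cell had 20341 to 26196 UMIs in the quiescent-like, 42770 to 49975 in the cycling-like and 31640.5 to 39017 in the committed-like class. In molecules per cell, the median quiescent-like cell had 506 to 637 nuclear and 901 to 1193 mitochondrial UMIs, and the median cycling-like cell had 1385 to 1482.5 nuclear and 1432 to 1891 mitochondrial UMIs. Both numbers were thus higher in cycling-like cells, in each library. The median committed-like cell had 1047 to 1278 nuclear and 1506 to 1842 mitochondrial UMIs. UMIs per cell depend on capture as well as on the amount of RNA, which cannot be told apart.

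Among single genes, almost all tested nuclear subunit genes were higher in committed-like than in quiescent-like cells. Sums over the cells of a class in each library were compared with edgeR, with the library as a block (n = 4 libraries, adjusted p over all genes tested). Of 83 nuclear genes tested, 80 were called higher, 2 lower (Cox4i2 and Cox6b2) and 1 was not called (Cox7a2l), with a median log2 fold change of 0.90 against -0.02 for all genes. Of all 12391 genes tested, 34.4% were called higher and 36.2% lower. All 37 complex I, 4 complex II, 8 complex III and 17 tested complex V genes were higher, and 14 of 17 complex IV genes. The medians were similar in complexes I to V, between 0.80 in complex II and 1.06 in complex III. With sums scaled by total counts alone, the median over all genes moved to -0.15 and 79 nuclear genes were higher and 3 lower, with the same direction for each called gene.

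Sdhd was at 93.2, 84.1, 82.7 and 93.3 counts per 1000000 UMIs (CPM) in quiescent-like cells, with the Pax7Cre libraries first and replicate 1 before replicate 2 in each genotype, and at 214, 232, 217 and 206 CPM in committed-like cells. The ranges were far apart, and the log2 fold change was 1.42 ± 0.07 (SE, adjusted p = 1.8e-08). Atp5k rose from 207, 263, 274 and 214 CPM to 421, 724, 752 and 499 CPM (log2 fold change 1.42 ± 0.08, adjusted p = 7.62e-08). Uqcrq (complex III), Ndufa5 (complex I) and Atp5g1 (a gene of the c-ring of the ATP synthase) had log2 fold changes of 1.40, 1.40 and 1.38. Other well known subunits changed by less. Cox4i1, the ubiquitous form of complex IV subunit 4, changed by 0.39 ± 0.06 (adjusted p = 2.11e-04) and Uqcrh, the hinge protein of complex III, by 0.29 ± 0.06 (adjusted p = 1.85e-03). The catalytic subunit Sdha of complex II changed by 0.43, the core subunits Ndufs1 and Ndufv1 of complex I by 0.93 and 0.63, and Atp5b, the catalytic β subunit of the ATP synthase, by 0.85.

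The c-ring genes encode the same mature protein from 3 loci and did not change alike. Atp5g1 went from 294 to 345 CPM in quiescent-like to 653 to 1015 CPM in committed-like cells and Atp5g3 from 260 to 278 to 527 to 605 CPM (log2 fold change 1.20 ± 0.06), whereas Atp5g2, the most abundant of them in quiescent-like cells at 666 to 818 CPM, reached 868 to 942 CPM (0.42 ± 0.06). Their differences from each other were not tested.

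**Figure D2:**
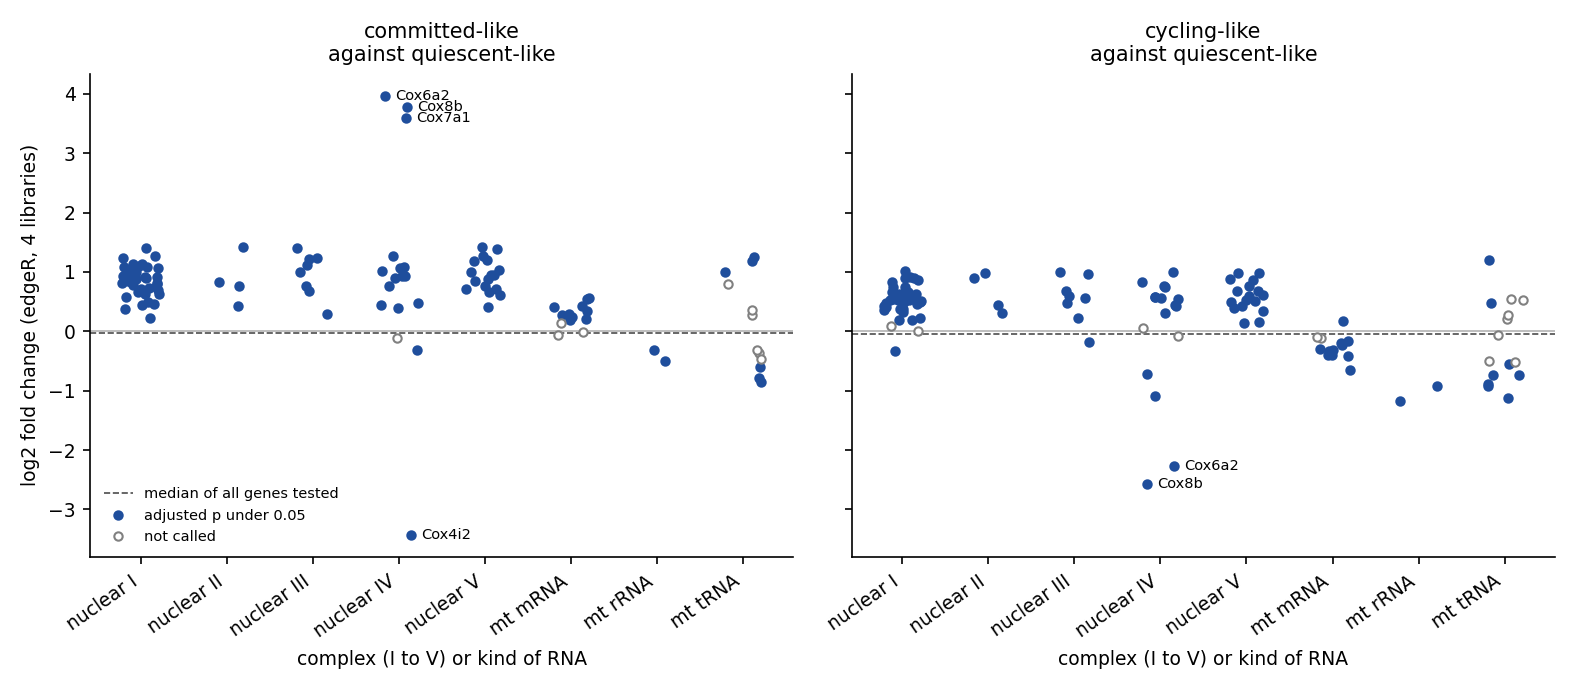
Log2 fold change (y axis, edgeR over 4 libraries) of each tested gene, by complex for nuclear genes and by kind of RNA for mitochondrial (mt) genes, for committed-like (left) and cycling-like (right) against quiescent-like cells; filled points passed an adjusted p of 0.05. Nuclear genes of every complex lie mostly above 0 in both comparisons, mitochondrial mRNAs have a median of 0.28 on the left and -0.29 on the right, with mt-Nd1 above 0 on both sides, and both rRNAs lie below 0.

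The largest changes were those of the muscle forms of complex IV subunits. Cox6a2 was at 9.0, 8.4, 10.6 and 19.1 CPM in quiescent-like cells and at 108, 243, 268 and 108 CPM in committed-like cells (log2 fold change 3.97 ± 0.31, adjusted p = 7.82e-07). Cox8b was at 3.3, 5.5, 7.0 and 10.2 CPM and then at 32.0, 180, 124 and 40.0 CPM (3.78 ± 0.35, adjusted p = 3.43e-06). Cox7a1 was at 4.9, 4.4, 8.3 and 8.5 CPM and then at 13.4, 174, 137 and 36.3 CPM (3.59 ± 0.45, adjusted p = 3.23e-05). The groups did not overlap for any of the 3 genes, but the committed-like values varied widely between libraries, and Pax7Cre replicate 2 and miR-501KO replicate 1 were the high libraries throughout. The ubiquitous partners were also called higher, Cox6a1 by 0.45 ± 0.05 and Cox8a by 0.47 ± 0.05, below the median of the nuclear genes, and Cox7a2 by 0.94 ± 0.06, near that median. Over the class, Cox8a was at 1404 to 1693 CPM and Cox8b at 32.0 to 180 CPM.

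Within the class, the muscle forms were concentrated in cluster 12, the 280 cells with Myh8 and Myh3 among their leading genes. Cox6a2 was at 379 to 939 CPM there and at 11.1 to 31.6 CPM in cluster 2, which holds the other 1213 committed-like cells. Cox7a1 was at 32.4 to 667 CPM in cluster 12 and at 7.5 to 13.7 CPM in cluster 2. Cells named by markers of other types were set beside these levels as a view of free RNA. They are not a clean background, as macrophage-like cells held 12.9 to 177 CPM of Myog and doublets were not removed. Macrophage-like cells, with a median of 16915 to 20823.5 UMIs, had 9.4 to 12.7 CPM of Cox6a2, 7.2 to 15.4 CPM of Cox7a1 and 1.5 to 2.4 CPM of Cox8b. Mural-like cells had 1.1 to 4.5 CPM of Cox6a2, 11.9 to 56.0 CPM of Cox7a1 and 0 to 1.1 CPM of Cox8b. These were only 1 to 6 UMIs of Cox6a2 and 0 to 2 UMIs of Cox8b in a library. The quiescent-like levels of Cox7a1 were thus below the mural-like levels. They were also below the macrophage-like levels, except in miR-501KO replicate 1 (8.3 against 7.2 CPM). Those of Cox6a2 lay near the macrophage-like and above the mural-like levels, so that a background could not be set for Cox6a2.

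**Figure D3:**
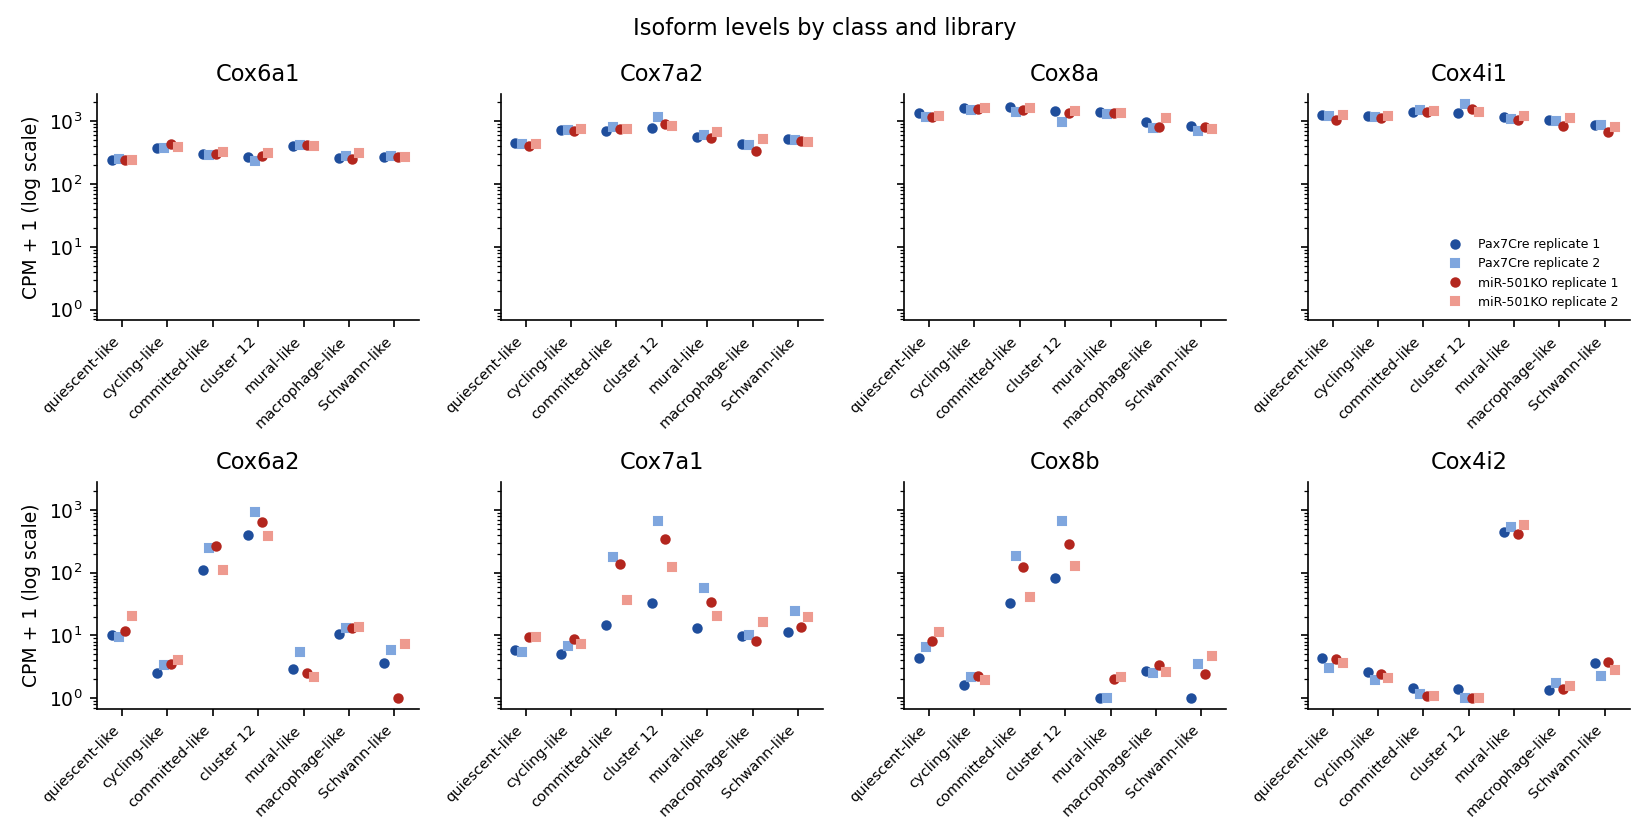
Level (CPM + 1, log scale, y axis) of 4 pairs of complex IV subunit forms by class and library (x axis; cluster 12 is a part of committed-like), with a ubiquitous form in the upper row and its partner below. Cox6a2, Cox7a1 and Cox8b are highest in cluster 12 and vary most between libraries there, and Cox4i2 is at 407 to 572 CPM in mural-like cells and at most 3.4 CPM in the myogenic classes.

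A small number of barcodes held a large part of the UMIs of these genes, in shares that differed between genes and libraries. In 30 barcodes (0.287% of 10450), more than 8% and up to 16.8% of the UMIs came from the nuclear genes. All 30 were in cluster 12, with 2 in Pax7Cre replicate 1, 17 in Pax7Cre replicate 2, 6 in miR-501KO replicate 1 and 5 in miR-501KO replicate 2. Few barcodes lay near the limit: 3 had 7% to 8% and 2 had 8% to 9%. In 28 of the 30 the mitochondrial genes took under 0.5% of the UMIs, with a median of 0.0490% over the 30, against 3.61% to 4.39% for the median cell of each library. Since these barcodes were picked by their nuclear share, the following is a description only. They held 3.76% of the committed-like UMIs but 84.1% of those of Cox7a1, 60.6% of Cox8b and 38.1% of Cox6a2. By library, the share ranged from 19.9% in Pax7Cre replicate 1 to 93.4% in Pax7Cre replicate 2 for Cox7a1, from 13.2% to 80.0% for Cox8b and from 9.84% to 65.6% for Cox6a2, with the same libraries at both ends. Pooled over the 30 barcodes, Cox8b was at 1375 CPM and Cox8a at 460 CPM, and Cox6a2 at 1715 CPM and Cox6a1 at 79.2 CPM. The muscle form thus exceeded the ubiquitous form. The 30 barcodes had a median of 35489 and at most 362241 UMIs, so that the deepest weigh most in pooled values. In the other committed-like barcodes, Cox8b was at 34.9 and Cox8a at 1627 CPM, and Cox6a2 at 109 and Cox6a1 at 312 CPM. The pair of Cox7a1 and Cox7a2 was at 1751 and 1761 CPM in the 30 barcodes and at 12.9 and 706 CPM in the rest.

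Genes of mature myofibres moved with them. In the 30 barcodes Mylpf, a fast myosin light chain, was at 74938 CPM and Ckm, the muscle creatine kinase, at 14149 CPM, against 2812 and 304 CPM in the rest. The 14 myofibre markers summed to 11051 to 30908 CPM in committed-like and to 686 to 1364 CPM in quiescent-like cells. The part of myofibre RNA or fragments in these barcodes was not tested. The 279 barcodes under 0.5% mitochondrial UMIs were then removed from all classes, a filter chosen after the data were seen. The log2 fold changes in committed-like cells were 3.35 ± 0.20 for Cox6a2, 2.57 ± 0.22 for Cox8b and 1.16 ± 0.15 for Cox7a1. All remained called. In committed-like cells outside the 30 barcodes, Cox7a1 was at 10.8 to 19.7 CPM by library. By library, these levels were 10.8 and 12.7 CPM in Pax7Cre (replicate 1 first) and 19.7 and 11.2 CPM in miR-501KO. Macrophage-like cells had 8.7, 9.1, 7.2 and 15.4 CPM in the same order, which was lower in each library but miR-501KO replicate 2. Mural-like cells had 11.9 to 56.0 CPM of Cox7a1 but 1.1 to 4.5 CPM of Cox6a2. Whether mural-like cells express Cox7a1 themselves was not tested. The part of free RNA in the remaining Cox7a1 difference was not tested. Pax7Cre replicate 2 held 17 of the 30 barcodes and 126 of the 279. With all barcodes kept but without this library, the log2 fold changes of Cox6a2, Cox8b and Cox7a1 were 3.66, 3.24 and 2.89. Without miR-501KO replicate 2 they were 4.52, 4.45 and 4.11. With the filter at 0.5% mitochondrial UMIs, 79 nuclear genes were called higher and 3 lower, with a median log2 fold change of 0.72 in place of 0.90.

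**Figure D4:**
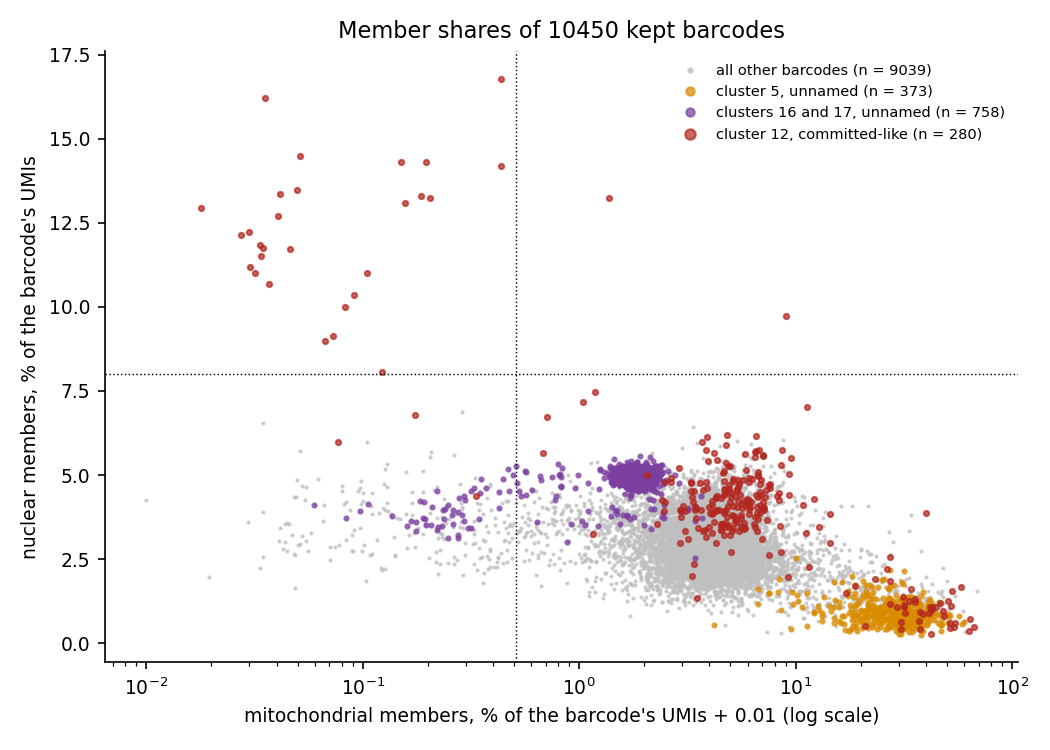
Nuclear share (%, y axis) against mitochondrial share (% + 0.01, log scale, x axis) of the UMIs of each of the 10450 kept barcodes; dotted lines mark 8% nuclear and 0.5% mitochondrial. Of the cluster 12 barcodes, 28 lie at the upper left, past both lines, cluster 5 is at high mitochondrial and low nuclear shares, and clusters 16 and 17 are at 0.94% and 1.76% mitochondrial UMIs of their library sums.

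Cox4i2, a form of complex IV subunit 4 known from lung and induced by low oxygen, went the other way. It was at 3.4, 2.0, 3.2 and 2.7 CPM in quiescent-like and 0.5, 0.2, 0.1 and 0.1 CPM in committed-like cells, which is 129 against 14 UMIs in all (ratio 0.0896, exact 95% interval 0.0476 to 0.156 for counting error only). The log2 fold change was -3.43 ± 0.36 (adjusted p = 8.29e-06). Mural-like cells had 407 to 572 CPM of Cox4i2, and a mural marker with few other sources, Rgs5, was at 3.5 to 12.1 CPM in quiescent-like and 2.3 to 5.4 CPM in committed-like cells, against 9173 to 13674 CPM in mural-like cells. Over all 9 mural markers, the sum was 698 to 813 CPM in quiescent-like cells with 0 of 9 at 0, and 3403 to 4620 CPM in committed-like cells with up to 2 of 9 at 0. Acta2, which differentiating muscle cells also express, made up most of the latter, with 3357 to 4579 CPM. The part of mural RNA in the Cox4i2 difference was not tested. When classes were set by UMI gates on markers instead of clusters, Cox4i2 was not called (log2 fold change 0.22, adjusted p = 0.86). The gates used Pax7, Myog and Mki67 over all kept barcodes, so that mural-like and other cells could enter them. Cox6b2, a testis form of subunit 6b, was low in all myogenic classes (5.3 to 11.9 CPM). It was called lower in committed-like cells (log2 fold change -0.32 ± 0.12, adjusted p = 0.0305) and higher in cycling-like cells (0.31 ± 0.09, adjusted p = 0.00838).

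The nuclear genes were also higher in cycling-like than in quiescent-like cells, by less. Of 83 tested, 73 were called higher, 6 lower and 4 were not called, with a median log2 fold change of 0.53 against -0.04 for all genes. Of all 12869 genes tested, 35.4% were called higher and 36.4% lower. Among the largest changes were those of Ndufa5 (1.02 ± 0.05, adjusted p = 1.43e-10), Cox5a (1.01 ± 0.05, adjusted p = 1.8e-10) and Uqcr10 (0.995 ± 0.04, adjusted p = 8.37e-11). Cox5a, a core nuclear subunit of complex IV, was at 354, 329, 286 and 350 CPM in quiescent-like and at 662, 608, 584 and 695 CPM in cycling-like cells, with no overlap. Atp5g3, Sdhd, Atp5k and Uqcrq had log2 fold changes between 0.97 and 0.98.

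The 6 lower genes were Cox8b, Cox6a2, Cox4i2, Cox7a2l, Ndufa6 and Uqcrh. The direction of Cox4i2 depended on how the classes were set, with a log2 fold change of -1.09 ± 0.18 between clusters and 2.36 ± 0.23 between classes set by UMI gates, both called. The gates were not limited to myogenic clusters, and the part of mural-like cells in the gated value was not tested. Cox6a2 was at 8.4 to 19.1 CPM in quiescent-like and 1.5 to 3.1 CPM in cycling-like cells (log2 fold change -2.26 ± 0.14, adjusted p = 3.85e-09). Since macrophage-like cells had 9.4 to 12.7 CPM and cycling-like cells were deeper, the part of free RNA in this difference was not tested. Cox8b was at 3.3 to 10.2 CPM and 0.6 to 1.3 CPM (-2.58 ± 0.20, adjusted p = 2.88e-08), and macrophage-like cells had 1.5 to 2.4 CPM. Cox7a1 did not pass the test (-0.08 ± 0.13). Cox7a2l, which takes part in joining complexes III and IV into supercomplexes, was at 634, 615, 533 and 636 CPM in quiescent-like and 344, 377, 330 and 365 CPM in cycling-like cells. No library overlapped, and the log2 fold change was -0.71 ± 0.05 (adjusted p = 7.83e-09). In committed-like cells it was at 455 to 545 CPM (-0.12 ± 0.05, adjusted p = 0.0634). Ndufa6, an accessory subunit of complex I, was at 277 to 303 CPM in quiescent-like and 214 to 233 CPM in cycling-like cells (-0.34 ± 0.05, adjusted p = 1.16e-05) and rose in committed-like cells (0.37 ± 0.07, adjusted p = 7.83e-04). Uqcrh fell by 0.19 on the log2 scale (SE 0.05, adjusted p = 2.3e-03).

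The mitochondrial genes were split by kind of RNA. Over all genes tested, 35.4% were called higher and 36.4% lower in cycling-like cells, and 34.4% and 36.2% in committed-like cells. In cycling-like cells, 10 of 13 mRNAs were lower, 1 was higher (mt-Nd1, 0.17 ± 0.07, adjusted p = 0.0454) and 2 were not called (mt-Nd2 and mt-Nd4l), with a median log2 fold change of -0.29. The largest change was that of mt-Co1, the catalytic subunit of complex IV, which was at 8734, 6694, 9420 and 7572 CPM in quiescent-like and 5237, 4321, 6364 and 4073 CPM in cycling-like cells (-0.65 ± 0.05, adjusted p = 6.58e-08). The number of mRNAs called depended on the scaling, the model and how the classes were set. With total counts alone 12 were called lower and 0 higher, and at a lower Leiden resolution (0.3) 6 lower and 1 higher. With UMI gates 5 were called lower and 2 higher, and the median was -0.05 in place of -0.29. Without the library block 5 were called lower and 0 higher. In committed-like cells, 10 of 13 mRNAs were called higher and 0 lower, with a median of 0.28. All 7 mRNAs of complex I and that of complex III (mt-Cytb, 0.40 ± 0.06, adjusted p = 2.22e-04) were among the 10, and mt-Nd2 (0.56 ± 0.07) and mt-Nd1 (0.54 ± 0.07) changed most. Of the 10, mt-Nd1, mt-Nd2, mt-Nd3, mt-Nd4l and mt-Cytb had a higher CPM in 4 of 4 libraries, mt-Nd4 and mt-Nd6 in 3, and mt-Nd5, mt-Co2 and mt-Atp6 in 2. With UMI gates 3 of 13 were called higher, and without the library block 4, with 0 lower in both. With total counts alone 7 were called higher and 1 lower (mt-Co1, -0.19). mt-Nd2, mt-Nd1, mt-Nd3 and mt-Cytb were still called, with log2 fold changes of 0.43, 0.42, 0.31 and 0.28, whereas mt-Nd5, mt-Co2 and mt-Atp6 were not.

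The 2 mitochondrial rRNAs were lower in both comparisons. The large rRNA mt-Rnr2 was at 7879, 6746, 10033 and 8773 CPM in quiescent-like cells. In cycling-like cells it was at 3600, 2963, 4351 and 3263 CPM, and committed-like cells had 6820, 3464, 7166 and 4976 CPM. Quiescent-like and cycling-like libraries did not overlap (log2 fold change -1.18 ± 0.05, adjusted p = 5.7e-11), and committed-like cells were lower within each of the 4 libraries (-0.49 ± 0.10, adjusted p = 1.43e-03). The small rRNA mt-Rnr1 changed by -0.92 ± 0.06 and -0.31 ± 0.09 (adjusted p = 6.28e-09 and 0.013). In committed-like cells neither rRNA was called without the library block or with UMI gates. In cycling-like cells both were called lower with UMI gates, with a median of -0.37 in place of -1.05. The direction was lower under each scaling tried. As mature rRNAs lack long poly(A) tails, these counts need not follow the amount of rRNA.

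Of the 22 tRNAs, 15 were tested in cycling-like cells (2 higher, 6 lower) and 12 in committed-like cells (3 higher, 3 lower). Over all genes tested, 35.4% were called higher and 36.4% lower in cycling-like cells, and 34.4% and 36.2% in committed-like cells. The tRNA counts are therefore not read as a result about the tRNAs. mt-Tf rose in cycling-like cells (1.21 ± 0.33, adjusted p = 4.23e-03) and mt-Tn fell in both classes (-1.13 ± 0.26 and -0.85 ± 0.29, adjusted p = 1.45e-03 and 0.0211), each with few UMIs (331 for mt-Tf and 353 for mt-Tn over all kept cells). The untested tRNAs, 10 in the committed-like and 7 in the cycling-like comparison, had at most 266 and 186 UMIs over all kept cells.

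Other genes of mitochondrial function rose with the nuclear subunits. The shares over all genes tested were 34.4% higher and 36.2% lower in committed-like cells, and 35.4% and 36.4% in cycling-like cells. Of 45 tested assembly factors of the complexes, 40 were called higher and 2 lower in committed-like cells and 36 higher and 2 lower in cycling-like cells. Taco1, a translational activator of mt-Co1, was among the largest in both (1.42 ± 0.15 and 1.08 ± 0.13), and Ttc19 (complex III) and Surf1 (complex IV) were the 2 lower genes in both. Of the mitochondrial ribosomal proteins, 71 of 74 were higher and 1 lower in committed-like cells, and 71 of 75 were higher and 2 lower in cycling-like cells, with Mrpl12 at 1.18 and 1.28. Of 16 genes of the citric acid cycle and pyruvate dehydrogenase, 15 were higher in each comparison and 0 lower, led by Idh3a, a subunit of isocitrate dehydrogenase (1.503 ± 0.07 and 1.20 ± 0.05). Of 11 electron carrier and transport genes, 11 and 10 were higher. Cytochrome c (Cycs), which carries electrons from complex III to IV, changed most (1.80 ± 0.08 and 1.65 ± 0.05).

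Regulators were mixed. Of 22 tested, 12 were higher and 4 lower in committed-like cells, against 34.4% and 36.2% of all genes. In cycling-like cells 10 were higher and 5 lower, against 35.4% and 36.4% of all genes. Ppargc1a, the coactivator known as PGC-1α, rose in committed-like cells (2.18 ± 0.26) together with Tefm and Polrmt, which transcribe the mitochondrial genome (1.39 ± 0.12 and 1.25 ± 0.13). Ppard fell in both (-1.20 ± 0.10 and -0.70 ± 0.09), and Nrf1 rose in cycling-like cells (0.72 ± 0.07). Ndufab1, the mitochondrial acyl carrier protein and a complex I subunit that the symbol rule leaves out, was higher in both (1.34 ± 0.06 and 0.93 ± 0.05).

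Over 28 sums (7 cell groups in 4 libraries), the genes whose log2 CPM was most like the summed nuclear genes were Aimp2, Grpel1 and Ndufab1 (Pearson r = 0.96, 0.95 and 0.94 across the sums, of 6346 other genes), and those most like the summed mitochondrial genes were Ogt, Zkscan3 and Tnrc6b (0.81, 0.81 and 0.80). These values are descriptions, as the sums of a library share its depth and preparation.

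The second question was whether the loss of miR-501 changed these genes. No member passed the edgeR test over all cells or in any class. The fits by class left out the unnamed cells, which were 1498 of the 2833 kept cells of miR-501KO replicate 1. Over all cells, the nuclear share was 3.19% and 3.19% in the Pax7Cre and 3.39% and 3.14% in the miR-501KO libraries (difference 0.0776 points, exact permutation p = 1). The mitochondrial share was 4.87% and 3.71% in Pax7Cre and 4.05% and 4.39% in miR-501KO (difference -0.0729 points, exact permutation p = 1, where 2 against 2 libraries cannot go below 0.333). The genotypes overlapped in both. The nuclear value of miR-501KO replicate 1 included cluster 17, which had Mylpf, Cox7a1 and Ckm among its leading genes and where the nuclear genes took 4.98% and the mitochondrial genes 1.76% of the UMIs, and without the 2 clusters of that library the differences were -0.105 and 0.204 points.

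In edgeR, 0 of 83 nuclear and 0 of 35 mitochondrial genes tested were called over all cells, 0 of 83 and 0 of 28 in quiescent-like cells, 0 of 83 and 0 of 32 in cycling-like cells, and 0 of 82 and 0 of 26 in committed-like cells. The background was 0.0% of all genes called in each of the 4 fits. DESeq2 called 13, 2, 3 and 2 genes in the same order, of which 1 was a member (mt-Nd4l in committed-like cells). At an unadjusted p under 0.05 there were 440 of 15725, 447 of 12386, 321 of 13396 and 360 of 12265 genes, and among the members 0, 3, 2 and 0 nuclear and 2, 5, 5 and 2 mitochondrial genes. On simulated data for the sums over all cells, genes changed 2-fold were called in 65.5% and genes changed 1.5-fold in 30% of cases. Of the calls, 2.24% and 14.3% were false. The simulation changed 200 genes at once and took the spread of each gene from the trend over genes. At that setting, most changes of the smaller size would have been missed. The genotype fits by class were not simulated. In quiescent-like cells, 76 of 83 nuclear genes had a lower fitted value in miR-501KO (median log2 fold change -0.13 against 0.00 for all genes). Within runs this held for run 1 only, where 15 of 83 had a higher CPM in miR-501KO (median -0.17), whereas 53 of 83 were higher in run 2 (median 0.03). For the difference between genotypes in the change from quiescent-like to committed-like cells, no member was called by edgeR (0.0% of 12978 genes, with 440 at an unadjusted p under 0.05). Of 83 nuclear genes, 76 had a positive fitted value, with a median of 0.09 on the log2 scale against 0.01 for all genes.

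The muscle forms had opposite directions in the 2 runs. In committed-like cells Cox7a1 was at 13.4 CPM in Pax7Cre and 137 CPM in miR-501KO of run 1, and at 174 and 36.3 CPM in run 2. These are the libraries with 2 and 6, and 17 and 5, of the 30 barcodes with a high nuclear share. Leaving out Pax7Cre replicate 1 made Cox7a1 and Cox8b lower in miR-501KO (log2 fold change -1.03 and -1.16), and leaving out Pax7Cre replicate 2 made Cox7a1 higher (2.61), each with an adjusted p under the threshold, so that 1 library set the direction.

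Among the mitochondrial genes with a higher fitted value in miR-501KO over all cells, mt-Nd4l, mt-Nd5 and mt-Nd6, subunits of complex I, had the lowest p without passing the test. In the other direction mt-Tt, a tRNA, had a log2 fold change of -0.57 ± 0.17 (edgeR, unadjusted p = 0.0167), and it was not called either. Over all cells mt-Nd4l had an edgeR log2 fold change of 0.47 ± 0.13 (unadjusted p = 0.0106), mt-Nd6 of 0.57 ± 0.27 and mt-Nd5 of 0.30 ± 0.13. In quiescent-like cells mt-Nd6, the mRNA encoded on the light strand, was at 46.5 and 49.2 CPM in Pax7Cre and at 123 and 53.9 CPM in miR-501KO, so that miR-501KO replicate 1 alone was high. The same library had the highest mt-Nd6 in all 6 named classes, at 1.93 to 2.61 times the mean of the other 3 libraries. Macrophage-like cells were among them, at 58.3 CPM against 17.1 to 27.1 CPM. mt-Atp8, at 1.80 to 2.51 times, and mt-Nd5, at 1.32 to 1.72 times, were likewise highest in this library in all 6 classes, and mt-Co1 at 1.08 to 1.41 times. In contrast mt-Cytb, mt-Co2 and mt-Co3 exceeded the other libraries in 0 of 6 classes. mt-Nd4l was higher in both miR-501KO libraries than in both Pax7Cre libraries in the 3 myogenic classes, at 391 and 397 CPM against 194 and 291 CPM in quiescent-like cells. In mural-like cells it was 419 and 275 against 188 and 392 CPM, which overlapped. A library effect and a genotype effect cannot be told apart for a gene that is high in 1 of 2 libraries.

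**Figure D5:**
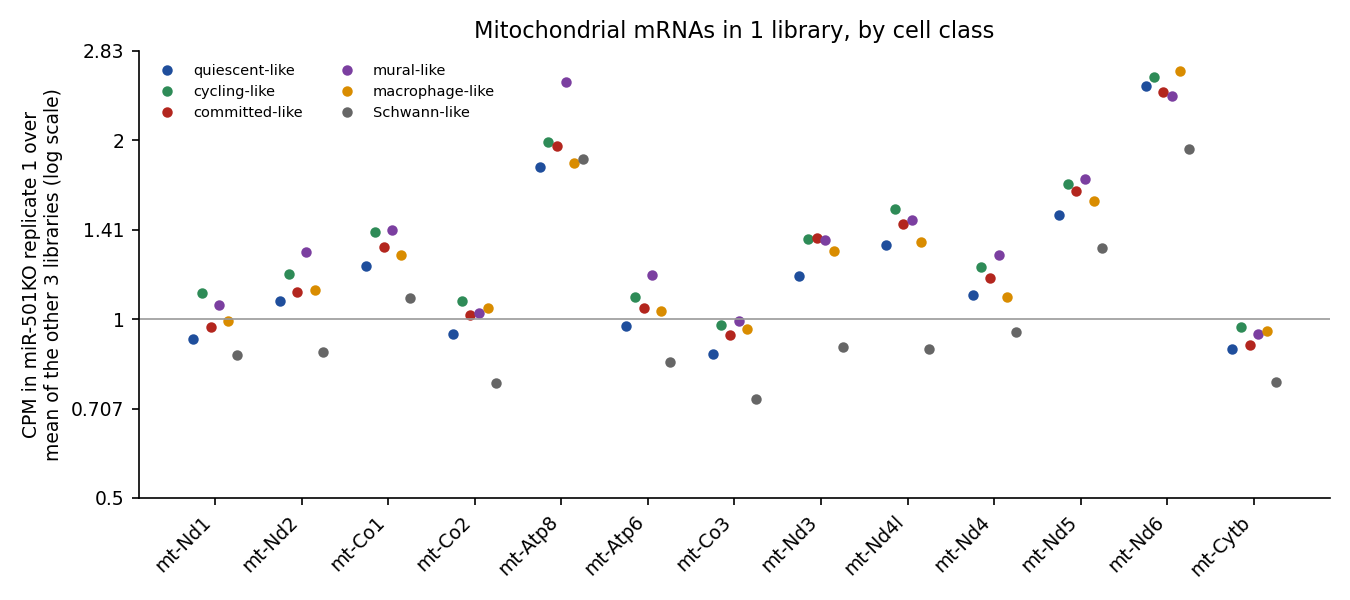
CPM of each mitochondrial mRNA in miR-501KO replicate 1 divided by the mean of the other 3 libraries (log scale, y axis), with a point for each of 6 named cell classes (x axis, genes in the order of the genome). mt-Nd6, mt-Atp8 and mt-Nd5 are above 1 in every class, whereas mt-Cytb is below 1 in every class.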

How the data were processed

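The authors deposited, for each of the 4 libraries, a matrix of UMI counts per gene and barcode, made with Cell Ranger 6.0.2 per the file headers on GRCm39 per the labels. Members and gene lists were chosen with earlier results of these data known. Barcodes of 5000 or more UMIs and 1000 or more genes were clustered without the members (scanpy 1.11.5, 2000 variable genes, 30 components, 15 neighbours, Leiden 0.5). Cluster names were rebuilt from markers and may differ from the study's. Counts were summed per library and class and tested with edgeR 4.0.16 (quasi-likelihood, TMM, low counts filtered, Benjamini-Hochberg over all genes, 0.05). The SE given with an edgeR log2 fold change was derived from the test, as the absolute change over the square root of F. The genotype was tested without, and classes with, a library block. Shares were compared by exact permutation. With 3 mice pooled, p-values measure the spread between libraries. Replicates of a group differed beyond sampling noise (chi-square over its degrees of freedom 70.2 and 67.2). Same-numbered libraries share a run per the labels; their deviations correlated at 0.02 over all cells and -0.16 to -0.30 in the classes. Named genes were the mitochondrial mRNAs, a fixed list of core subunits and isoform pairs, and up to 8 genes per direction with the largest fold among those called and alike in each library; without calls, the 3 with the lowest p. Genes chosen after their values were seen: Ndufa6, Mylpf, Ckm, Rgs5 and Acta2. Alternatives included DESeq2 1.42.0. Intervals cover counting error only. Cox5b and Cox5b-ps may share reads.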

Additional observations from a re-analysis of the deposited data

Results flagged for a closer look

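A single value stood apart among the 35 sets of 4 library values examined, where chance flags about 1 in 20. The difference in mitochondrial share between cycling-like and quiescent-like cells was -2.20 percentage points in miR-501KO replicate 2, against -1.31 to -1.36 in the other 3 libraries.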

How the results depend on the processing

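The rise of the nuclear genes in committed-like and cycling-like cells kept its direction and its count of calls, within 1.5 times, under every alternative run. With UMI gates the median log2 fold change in cycling-like cells was 0.27 in place of 0.53. The mitochondrial results depended more on the processing. The difference in mitochondrial share by genotype changed sign with barcodes of at least 2000 UMIs (0.029 points), without the clusters of 1 library (0.204) and on leaving out libraries (-0.652 to 0.507), and the nuclear one without those clusters (-0.105) and on leaving out libraries (-0.050 to 0.205). The committed-like minus quiescent-like mitochondrial share changed sign with at least 2000 UMIs (0.167), without barcodes under 0.5% mitochondrial UMIs (0.149), as a median over cells (0.0041) and on leaving out libraries (-0.303 to 0.121). In committed-like cells, mitochondrial genes called higher were 7 without the library block, 5 with UMI gates and 11 to 13 without a library. Those called lower were 3 with DESeq2 or at most 10% mitochondrial UMIs, 2 with at least 2000 UMIs or no block, 1 with UMI gates, 8 with members clustered and 2 to 8 without a library. Nuclear genes called lower were 1 with DESeq2, at least 2000 UMIs, Leiden 0.3 or no block, 0 with UMI gates and 1 to 2 without a library. In cycling-like cells, mitochondrial genes called higher were 1 without the block and 2 to 4 without a library, and those called lower 8 with UMI gates. UMI gates reversed Cox4i2 in committed-like (0.22) and cycling-like cells (2.36) and Cox6b2 in committed-like cells (0.22). The cause was not tested. By genotype, 2 nuclear genes were called in quiescent-like cells with members clustered, 2 mitochondrial genes in cycling-like cells with no filter and 0 to 2 without a library, 1 in committed-like cells with DESeq2, and 0 to 2 nuclear and 0 to 1 mitochondrial genes there without a library.

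With the run as a replicate block, 0 members were called by genotype in any class, while calls over all genes went from 0 to 53 (quiescent-like) and 36 (cycling-like). Pairing the libraries with crossed numbers, an alternative chosen after the data were seen together with the total-count scaling and the removal of cluster 5 and of barcodes under 0.5% mitochondrial UMIs, called 17 genes in the cycling-like class, 2 in the committed-like class and 0 elsewhere, of which 1 was a member. With 2 libraries a genotype, leaving 1 out leaves a lone library that is assumed to vary like the others. Depth limits the tRNAs, Cox4i2 and the undetected genes.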
